A study of Mus musculus with 69 samples.

Results

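Kidney RNA was compared between the late rest phase and the late active phase in young NZB/W mice, the lupus-prone F1 hybrid of the NZB and NZW strains, before nephritis. The comparison rests on 8 of the 69 samples of the series, 4 labelled Young at ZT8 and 4 labelled Young at ZT20, chosen by their diagnosis and time labels alone. ZT counts hours from lights on in a day of 12 h of light, so that ZT8 falls in the rest phase of these night-active animals and ZT20 in their active phase. All 8 animals were described as females aged 12 weeks, no engineered allele or treatment is given for them, and each library came from the whole perfused kidney of one mouse. The other 22 young libraries, at ZT0, ZT4, ZT12 and ZT16, entered the model for the spread between mice. RNA-seq sets were assigned from the library names, and by these names the 8 libraries belong to one set. The nephritic groups used for comparison held 4 mice at ZT8 and 3 at ZT20, aged 30 to 45 weeks, of the same hybrid, untreated and with proteinuria. NZB/W nephritis arises with age in this hybrid, so age and disease cannot be told apart between the young and the nephritic groups.

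The mammalian clock is a transcriptional loop. Arntl (Bmal1) with Clock or Npas2 activates genes that carry E-boxes, among them the Per, Cry, Nr1d and PAR bZIP genes. PER and CRY proteins then repress that activation, NR1D1 and NR1D2 (the REV-ERBs) repress Arntl and Npas2 against the activating RORs, and the PAR bZIP factors DBP, TEF and HLF act on D-boxes against the repressor NFIL3. In the kidney this clock is known for daily rhythms in salt, water and acid-base handling and in metabolism.

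Levels are given as CPM, TMM-scaled counts relative to the library total, a scaling that corrects for library size and composition. Libraries held 25550735 to 31271479 counts at ZT8 and 30686035 to 33493416 at ZT20. Kidney markers were abundant in all 8: the summed CPM of 6 proximal tubule markers was 13255 to 16579 CPM at ZT8 and 11213 to 12312 CPM at ZT20, and that of 4 thick ascending limb markers was 3214 to 3748 CPM at ZT8 and 4802 to 7898 CPM at ZT20. ZT8 replicate 3 stood apart by liver transcripts, with 13355 CPM summed over 8 liver markers against 26.1 to 628 CPM in the other 7 libraries. The same library was also low in Xist, the RNA of the inactive X chromosome, which goes against what is usual for a female: Xist measured 822, 766, 59.0 and 836 CPM at ZT8 and 732, 758, 960.0 and 842 CPM at ZT20. Kdm6a, an X-linked gene that escapes inactivation, was also lowest there, at 60.5, 57.1, 26.6 and 61.0 CPM at ZT8 and 57.3, 54.4, 83.1 and 58.1 CPM at ZT20. No count fell on 4 Y-linked genes in that library, and 2 counts did in the other 7 together. ZT20 replicate 3 stood apart by adrenal transcripts, with 845 CPM over 8 adrenal cortex markers and 133 CPM over 5 adrenal medulla markers. In the other 7 libraries these sums were 9.82 to 15.8 CPM and 0.230 to 0.518 CPM. ZT8 replicate 4 held more transcripts of B cells and neutrophils, 53.3 and 16.2 CPM against 5.54 to 20.1 and 0.0647 to 4.86 CPM in the others. Adipocyte markers summed to 17.3 to 63.3 CPM at ZT8 and 117 to 329 CPM at ZT20, and urothelial markers to 12.8 to 28.8 CPM at ZT8 and 28.3 to 67.2 CPM at ZT20, so that both sums moved with the time of day. All 6 of 6 adipocyte and all 6 of 6 urothelial markers were higher at ZT20 in the test. Results were therefore also computed without ZT8 replicate 3 and ZT20 replicate 3, as 3 mice against 3, called below the comparison without both replicates 3. In whole-kidney RNA, more cells of a type and more RNA per cell cannot be told apart.

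**Figure D1:**
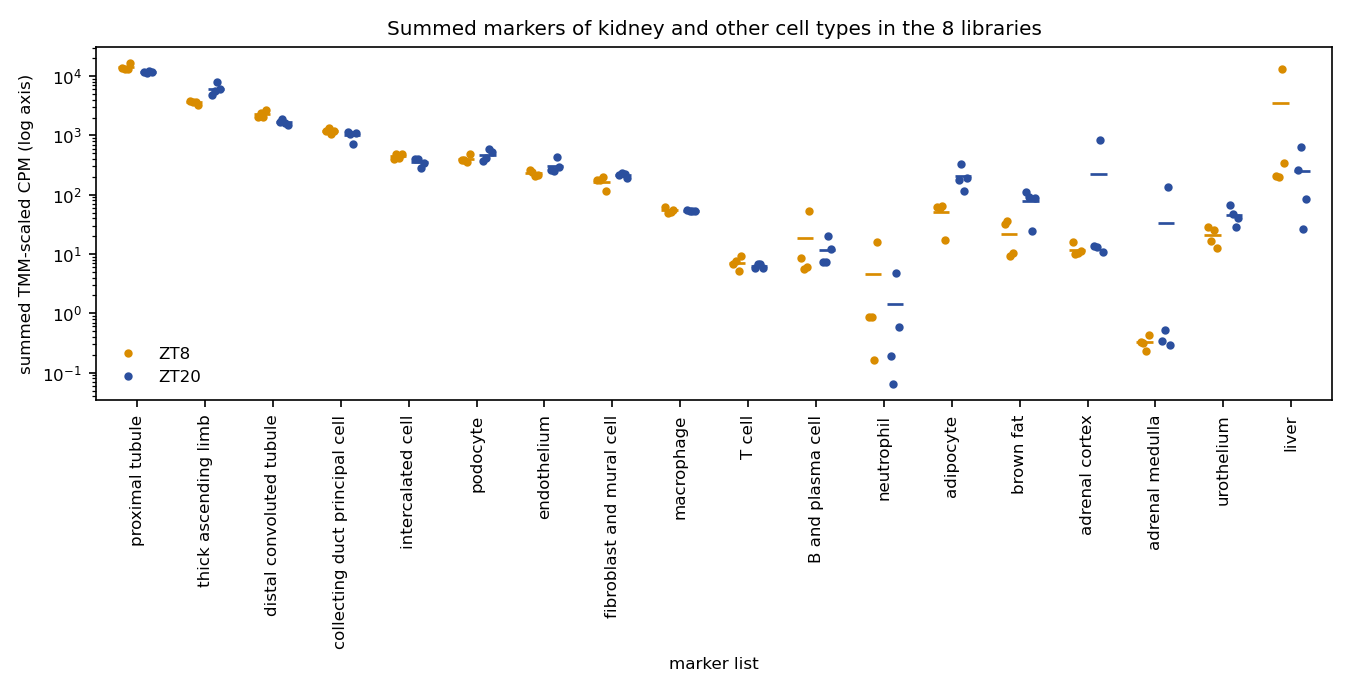
Summed CPM (log axis) of the marker genes of 18 kidney and other cell types or tissues in the 4 ZT8 (orange) and 4 ZT20 (blue) libraries, with the mean as a bar. One ZT8 library stands at 13355 CPM for liver and one ZT20 library at 845 CPM for adrenal cortex, while the adipocyte sums of the 4 ZT20 libraries all lie above those of ZT8.

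Of 16521 genes tested, 3748 (22.7%) differed between ZT8 and ZT20 in young kidney at an adjusted p of at most 0.05. They split evenly, with 1879 (11.4%) higher at ZT8 and 1869 (11.3%) higher at ZT20. Counts of each gene list from all 8 libraries are read against these shares. Most differences were small: the median absolute log2 difference of the called genes was 0.42, and 282 genes at ZT8 and 275 at ZT20 passed 2-fold. The lowest library of one time lay above the highest of the other for 1704 genes (10.3%) in favour of ZT8 and for 1864 genes (11.3%) in favour of ZT20. Over the 6 time points of the day, the highest mean fell at ZT8 for 61.4% of the genes higher at ZT8, and at ZT20 for 64.4% of those higher at ZT20. Without both replicates 3, 2319 of 16424 genes tested were called, 1129 higher at ZT8 and 1190 at ZT20. List counts without both replicates 3 are read against these smaller numbers. Of the 2319, 2054 were shared with all 8 libraries and 0 of these had the opposite sign. All log2 differences are ZT8 minus ZT20, so that negative values are higher at ZT20, and the median over all genes tested was -0.0047.

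**Figure D2:**
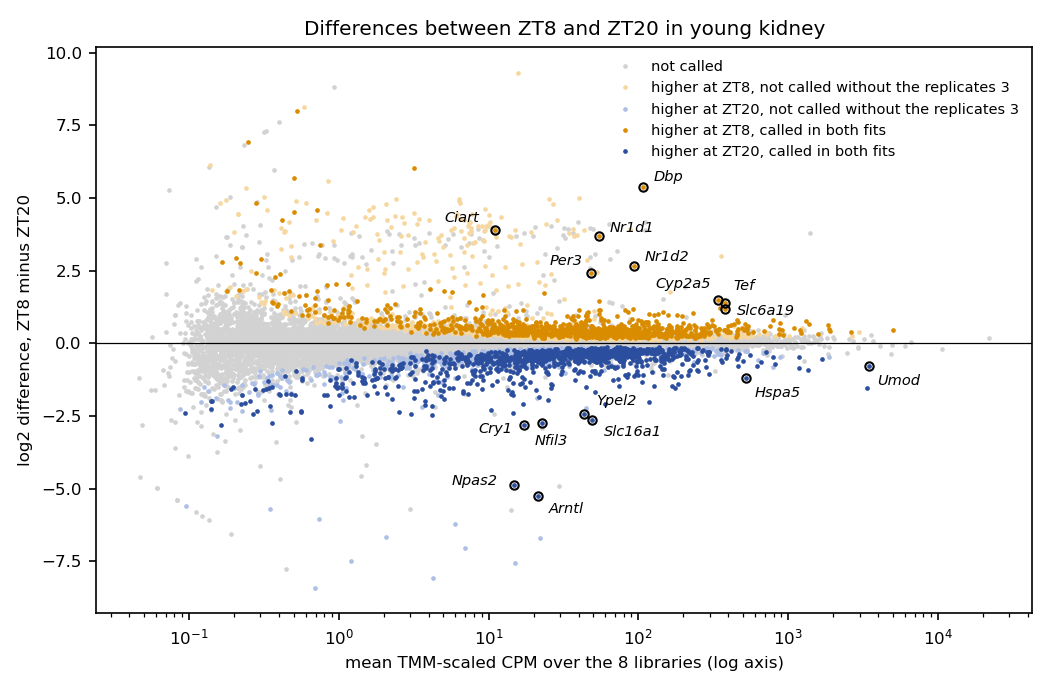
Log2 difference between ZT8 and ZT20 (vertical axis) against mean CPM over the 8 libraries (log axis) for each gene tested, with genes called in both fits in full colour and those not called without both replicates 3 in pale colour. Arntl, at -5.25, and Npas2, at -4.89, are the lowest of the labelled genes and Dbp, at 5.38, the highest, while most of the pale points beyond 2-fold lie on the ZT8 side, with Cyp2c69, at 4.04, among them.

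Most clock activators were higher at ZT20. Of 7 genes in the list, 5 were called higher at ZT20 and 0 at ZT8, with a median log2 difference of -1.32, and the counts were 0 at ZT8 and 5 at ZT20 without both replicates 3. Arntl (chr7:113178471-113314126 in GRCm38.p6), the partner of CLOCK and NPAS2, measured 1.08, 1.10, 1.09 and 1.13 CPM at ZT8 and 39.2, 36.4, 48.7 and 43.0 CPM at ZT20. The libraries of each time lay close together and the 2 times were far apart, a 37.9-fold difference with a log2 value of -5.25 (SE 0.19, adjusted p = 1.4e-17). Npas2 (chr1:39193702-39363240), a paralog of Clock, measured 1.01, 0.903, 1.05 and 0.896 CPM at ZT8 and 30.97, 24.0, 29.9 and 30.3 CPM at ZT20. ZT20 replicate 2 was the lowest of its group and still far above every ZT8 library, and the log2 difference was -4.89 (SE 0.17, adjusted p = 1.4e-17). Clock itself measured 33.7, 35.3, 37.7 and 36.1 CPM at ZT8 and 63.2, 66.2, 99.3 and 65.9 CPM at ZT20. ZT20 replicate 3 was the highest, the groups did not overlap, and the log2 difference was -1.05 (SE 0.11, adjusted p = 1.8e-07).

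Nfil3 (chr13:52967209-52982878), the D-box repressor, which was kept in the activator list although it is not one, measured 4.83, 4.75, 8.99 and 5.49 CPM at ZT8 and 34.5, 37.9, 34.9 and 52.0 CPM at ZT20. ZT8 replicate 3 was the highest of its group but far below every ZT20 library, with a log2 difference of -2.72 (SE 0.17, adjusted p = 3.6e-12). The ROR receptors activate Arntl. Rora measured 56.9 to 65.6 CPM at ZT8 and 50.4 to 81.5 CPM at ZT20, with a log2 difference of 0.026 (SE 0.11, adjusted p = 0.89), and Rorb was below 0.2 CPM in every library with 0.51 (SE 0.61, adjusted p = 0.58).

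Among the 10 clock repressors, 7 were called higher at ZT8 and 1, Cry1, at ZT20, both with and without both replicates 3, with a median of 1.20. Ciart (Chrono, chr3:95878500-95882257), a repressor of the Arntl complex, measured 18.4, 21.2, 20.6 and 22.3 CPM at ZT8 and 1.32, 1.33, 1.55 and 1.31 CPM at ZT20. The 4 ZT20 libraries lay close together, and the log2 difference was 3.90 (SE 0.23, adjusted p = 2e-12). Nr1d1 (chr11:98767932-98775377), the gene of REV-ERB alpha, measured 103, 103, 117 and 85.0 CPM at ZT8 and 6.81, 7.38, 9.05 and 8.39 CPM at ZT20. Nr1d2 (chr14:18204056-18239106), that of REV-ERB beta, measured 165, 158, 159 and 164 CPM at ZT8 and 23.8, 21.9, 32.8 and 22.3 CPM at ZT20. Both receptors were higher in every ZT8 library than in any ZT20 library, with log2 differences of 3.69 (SE 0.24, adjusted p = 1.8e-11) and 2.68 (SE 0.11, adjusted p = 2.4e-16). Over the 6 times of day, Nr1d2 had its highest mean at ZT8. The means of Nr1d1 were highest and nearly equal at ZT4 and ZT8, at 102.5 and 102.0 CPM.

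Of the 3 period genes, Per2 and Per3 were called and Per1 was not. Per3 (chr4:150997018-151044707) measured 89.3, 83.4, 79.4 and 75.1 CPM at ZT8 and 14.4, 16.3, 14.8 and 16.1 CPM at ZT20, with a log2 difference of 2.41 (SE 0.12, adjusted p = 1.9e-14). Per2 measured 62.3, 50.9, 51.6 and 55.8 CPM at ZT8 and 26.6, 39.2, 32.3 and 34.4 CPM at ZT20, a smaller and still non-overlapping difference of 0.73 (SE 0.16, adjusted p = 0.0024). Per1, which also responds directly to glucocorticoid, measured 71.6, 80.2, 49.4 and 116 CPM at ZT8 and 31.3, 27.1, 50.4 and 96.9 CPM at ZT20. Its groups overlapped, with ZT20 replicate 4 above 3 of the ZT8 libraries, and its log2 difference was 0.62 (SE 0.31, adjusted p = 0.14). Over the day, Per1 and Per2 had their highest mean at ZT12 and Per3 at ZT8.

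The cryptochromes went opposite ways. Cry1 (chr10:85131700-85185054) measured 4.08, 4.12, 4.21 and 4.87 CPM at ZT8 and 29.6, 30.5, 30.4 and 29.7 CPM at ZT20, and the 4 ZT20 libraries lay close together. Its log2 difference was -2.80 (SE 0.15, adjusted p = 2.4e-13). Cry2 measured 49.0, 50.7, 44.6 and 48.2 CPM at ZT8 and 35.5, 36.6, 32.8 and 35.9 CPM at ZT20, higher at ZT8 in each library by 0.45 (SE 0.090, adjusted p = 0.00088). Of the DEC repressors, which compete at E-boxes, Bhlhe41 measured 12.7, 15.9, 13.2 and 14.02 CPM at ZT8 and 3.95, 3.88, 5.61 and 4.07 CPM at ZT20, with 1.67 (SE 0.13, adjusted p = 4.5e-10), while Bhlhe40 overlapped between times at 145 to 199.8 CPM at ZT8 and 103 to 187 CPM at ZT20 with 0.16 (SE 0.16, adjusted p = 0.48).

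**Figure D3:**
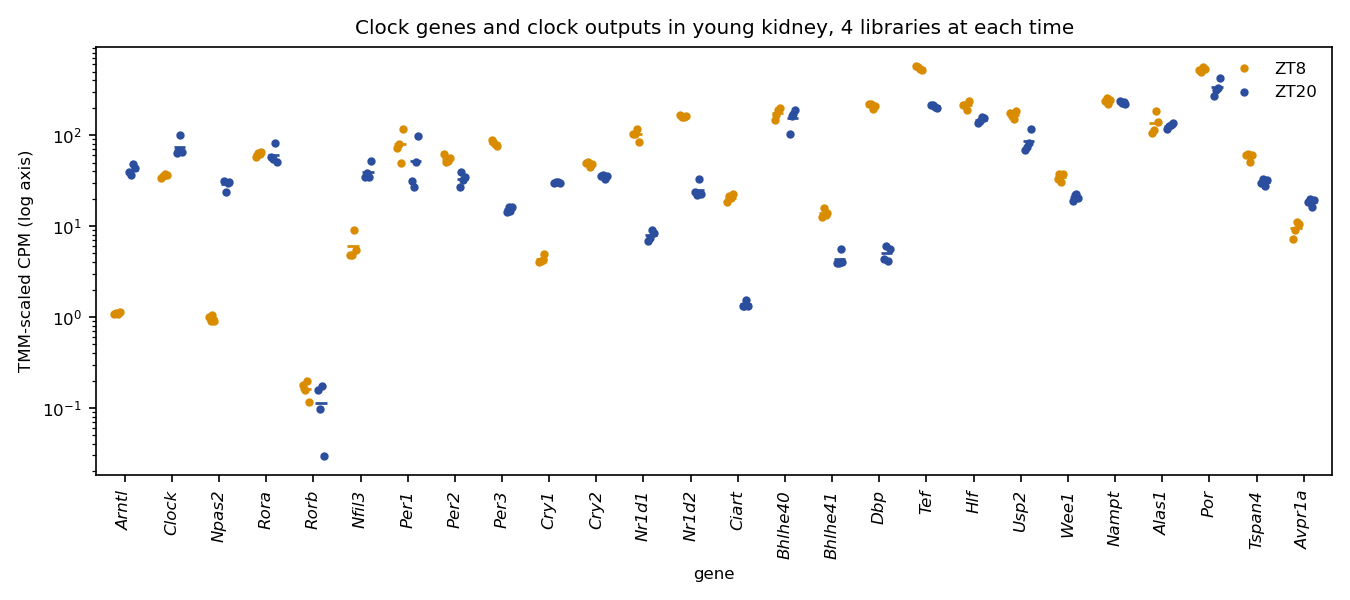
CPM (log axis) of 26 clock genes and clock outputs in each of the 4 ZT8 (orange) and 4 ZT20 (blue) libraries, with the mean as a bar. Arntl and Npas2 lie near 1 CPM at ZT8 and at 24.0 to 48.7 CPM at ZT20, Dbp lies at 195 to 219 CPM at ZT8 and 4.14 to 6.05 CPM at ZT20, and Rora, Rorb, Per1, Bhlhe40, Nampt and Alas1 overlap.

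Clock outputs were mostly higher at ZT8. Of the 10 genes in this list, 7 were called higher at ZT8 and 1 at ZT20, with and without both replicates 3, and the median was 0.69. Dbp (chr7:45705100-45710203), the PAR bZIP factor that binds the albumin promoter D-box, measured 218, 219, 195 and 208 CPM at ZT8 and 4.36, 6.05, 4.14 and 5.65 CPM at ZT20. The groups were far apart, 41.6-fold, with a log2 value of 5.38 (SE 0.21, adjusted p = 1.8e-16). Its paralogs had smaller values. Tef measured 569.7, 568, 539.6 and 523 CPM at ZT8 and 214, 215, 204 and 197 CPM at ZT20, with 1.41 (SE 0.089, adjusted p = 6.1e-12), and Hlf measured 215, 215, 190.3 and 239 CPM at ZT8 and 136, 144, 159 and 155 CPM at ZT20, with 0.53 (SE 0.091, adjusted p = 0.00016).

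Usp2, a deubiquitinase that acts on clock proteins and on the epithelial sodium channel pathway, was 151 to 183 CPM at ZT8 and 68.6 to 117 CPM at ZT20, with a log2 difference of 0.97 (SE 0.16, adjusted p = 0.00015). Tspan4, a tetraspanin, was 50.9 to 62.7 CPM at ZT8 and 27.7 to 33.1 CPM at ZT20, with 0.94 (SE 0.081, adjusted p = 3.9e-09). Wee1, the kinase that holds back entry into mitosis, was 30.4 to 37.3 CPM at ZT8 and 18.9 to 22.4 CPM at ZT20, with 0.72 (SE 0.11, adjusted p = 2.5e-05). Por, the electron donor of microsomal cytochromes P450, was 499 to 568 CPM at ZT8 and 267 to 429 CPM at ZT20, with 0.66 (SE 0.11, adjusted p = 0.00013). None of these 4 genes overlapped between times. The member that was higher at ZT20 was Avpr1a, a vasopressin receptor, at 7.29, 8.99, 10.99 and 10.6 CPM at ZT8 and 18.3, 19.96, 16.3 and 19.1 CPM at ZT20, with -0.96 (SE 0.13, adjusted p = 8.7e-06). Nampt and Alas1, the rate-limiting enzymes of NAD salvage and haem synthesis, had log2 differences of 0.061 (SE 0.081, adjusted p = 0.62) and 0.096 (SE 0.17, adjusted p = 0.72).

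Promoter sequence was available for 23 of the 27 genes in the 3 clock lists as RefSeq windows (GRCm38.p6) of 250 bases before to 50 bases after each transcription start. The windows were searched on both strands for 3 clock motifs, the E-box CACGTG, the D-box as TTATGTAA or TTACGTAA, and the REV-ERB and ROR element as TAGGTCA. Matches upstream of the start are shown for genes of both phases, with the motif in capitals and the gene's own strand read 5′ to 3′. Only promoters with a match are shown. Among the genes far apart between times, Dbp, Nr1d1, Nr1d2 and Npas2 held none of the 3 motifs in these windows. The same was true of Clock, Rora, Rorb, Cry2, Hlf, Usp2, Nampt, Alas1, Por and Avpr1a. A match is a description of letters, not of binding.

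Ciart (chr3:95882242-95882311, E-boxes 58 and 44 bases before the start): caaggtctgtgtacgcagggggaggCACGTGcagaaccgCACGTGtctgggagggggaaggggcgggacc
Bhlhe41 (chr6:145865543-145865598, E-box 153 bases before the start): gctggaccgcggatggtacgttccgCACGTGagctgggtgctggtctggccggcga
Tef (chr15:81802521-81802576, E-box 127 bases before the start): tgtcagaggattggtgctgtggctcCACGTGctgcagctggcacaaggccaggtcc
Per1 (chr11:69098758-69098813, E-box 166 bases before the start): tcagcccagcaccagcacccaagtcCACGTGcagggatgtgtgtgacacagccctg
Cry1 (chr10:85185084-85185139, E-box 60 bases before the start): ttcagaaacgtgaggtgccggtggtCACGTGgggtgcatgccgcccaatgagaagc
Per3 (chr4:151044791-151044895, D-boxes 205 and 158 bases before the start): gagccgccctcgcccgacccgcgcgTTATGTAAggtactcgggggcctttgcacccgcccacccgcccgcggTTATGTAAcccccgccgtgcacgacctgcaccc
Nfil3 (chr13:52981040-52981076, REV-ERB and ROR element on the opposite strand, 12 bases before the start): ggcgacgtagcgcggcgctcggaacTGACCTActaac

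The E-box thus stood in promoters of genes higher at ZT8 (Ciart, Bhlhe41, Tef) and of one higher at ZT20 (Cry1). Ciart carried another E-box 116 bases before the start, and a further promoter of Tef and one promoter of Tspan4 held 1 E-box each. One of the 2 promoters of Arntl held the REV-ERB and ROR element after the start. The E-box was present in 7.15% of all 32851 promoters, the D-box in 1.06% and the REV-ERB and ROR element in 2.61%. Among 12592 tested genes that matched a promoter by symbol, 10.8% held an E-box, against 13.2% of the 1470 called higher at ZT8 and 10.6% of the 1449 called higher at ZT20. Among genes at least 2-fold higher at ZT8 the E-box share was below that of all genes tested, at 8.15% of 233 with all libraries and 5.88% of the 85 called in both fits. Genes at least 2-fold higher at ZT20 were also below it, at 7.73% of 194 and 9.93% of 141. For the REV-ERB and ROR element the shares were 2.49% of those tested, 2.65% of those higher at ZT8 and 3.45% of those higher at ZT20. Among genes at least 2-fold higher at ZT8 it was 6.87% and 4.71% in the same sets, and among those at least 2-fold higher at ZT20 3.09% and 3.55%. The D-box was present in 0.977% of those tested, 1.02% of those higher at ZT8 and 0.69% of those higher at ZT20. It was present in 2.58% (6 genes) and 3.53% (3 genes) of those at least 2-fold higher at ZT8. Of those at least 2-fold higher at ZT20, 0 held it in either set.

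Outside the clock, several of the largest differences rested on single libraries. By size, the 12 genes most higher at ZT8 also held Cyp2c69, Creb3l3, Abcg8, Abcg5, Nat8f2, Slco1a1 and Upp2, and none of these 7 was called without both replicates 3. Creb3l3, a transcription factor of liver and gut, measured 1.73, 2.79, 35.3 and 2.49 CPM at ZT8 and 0.816, 1.42, 0.345 and 0.297 CPM at ZT20. Upp2, a uridine phosphorylase, measured 9.02, 11.04, 71.2 and 10.5 CPM at ZT8 and 5.80, 6.76, 5.26 and 6.63 CPM at ZT20. In each of the 7, ZT8 replicate 3, the library with liver transcripts and low Xist, was far above the other ZT8 libraries. The part of liver RNA, or of whatever sets this animal's Xist apart, in these differences was not tested. Without both replicates 3 the log2 difference was 1.47 (SE 0.90, adjusted p = 0.3) for Creb3l3 and 0.67 (SE 0.31, adjusted p = 0.15) for Upp2.

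The 12 genes most higher at ZT20 held, beside Arntl, Npas2, Cry1 and Nfil3, a group that the 2 doubted libraries did not decide. Slc16a1, the monocarboxylate transporter MCT1, measured 12.3, 13.1, 14.6 and 14.8 CPM at ZT8 and 85.3, 78.0, 104 and 69.1 CPM at ZT20. Ypel2, a zinc-finger protein of the yippee family, measured 12.8, 14.02, 13.6 and 14.02 CPM at ZT8 and 84.1, 65.5, 86.3 and 55.6 CPM at ZT20. In both genes every ZT20 library was more than 3 times the highest ZT8 library, with log2 differences of -2.62 (SE 0.18, adjusted p = 2.9e-11) and -2.42 (SE 0.16, adjusted p = 2.3e-11). The remaining genes by size included fat-cell products. Lep, the gene of leptin, measured 0.156 to 1.296 CPM at ZT8 and 3.12 to 8.54 CPM at ZT20, with -2.44 (SE 0.57, adjusted p = 0.0035), Cidea, a lipid droplet protein of brown fat, 1.44 to 8.44 CPM at ZT8 and 9.46 to 33.2 CPM at ZT20, with -2.41 (SE 0.52, adjusted p = 0.0017), and Adig, adipogenin, 0.234 to 1.18 CPM at ZT8 and 1.93 to 7.25 CPM at ZT20, with -2.37 (SE 0.51, adjusted p = 0.0016). These 3 genes, Slc36a2, an amino acid transporter at -2.48, and Pnpla3, a lipid droplet lipase at -2.28, moved beside the adipocyte marker sum of 17.3 to 63.3 CPM at ZT8 and 117 to 329 CPM at ZT20. Lep is itself one of the 6 adipocyte markers. Brown fat markers summed to 9.08 to 35.9 CPM at ZT8 and 24.8 to 112 CPM at ZT20, with overlap between the times. The part of perirenal fat in the differences of these genes was not tested. Fosb, an immediate early gene, completed the 12 with -2.20 (SE 0.73, adjusted p = 0.03) and with -2.11 (SE 0.84, adjusted p = 0.094) without both replicates 3.

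Most genes of protein folding in the endoplasmic reticulum were higher at ZT20. Of 20 genes, 13 were called higher at ZT20 and 0 at ZT8, with a median of -0.42, and 12 were called so without both replicates 3. Hspa5 (chr2:34772090-34776529), the gene of BiP, the main chaperone of that compartment, measured 304, 294, 324 and 353 CPM at ZT8 and 739.7, 816, 599.6 and 781 CPM at ZT20. Each ZT20 library lay well above each ZT8 library, a log2 difference of -1.20 (SE 0.20, adjusted p = 0.00015). Hyou1, a co-chaperone of the same family, was 64.0 to 72.9 CPM at ZT8 and 127 to 167 CPM at ZT20, with -1.08 (SE 0.21, adjusted p = 0.00051). Hsp90b1 (GRP94) was 355 to 447 CPM at ZT8 and 533 to 651 CPM at ZT20, with -0.61 (SE 0.13, adjusted p = 0.0014), and Dnajc3, an inhibitor of eIF2 alpha kinases, was 179 to 208 CPM at ZT8 and 249.8 to 299 CPM at ZT20, with -0.45 (SE 0.080, adjusted p = 0.00028). Sdf2l1 and Manf, named after their values were seen, also act in folding there and differed by -1.39 (SE 0.29, adjusted p = 0.0014) and -1.13 (SE 0.26, adjusted p = 0.0031), with ZT20 replicate 3 the lowest ZT20 library in both.

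Of 21 cytosolic and mitochondrial heat shock genes, 9 were called higher at ZT20 and 0 at ZT8 (median -0.30), and 8 without both replicates 3. Hsp90aa1, the inducible HSP90, measured 209.5, 224, 229.8 and 241 CPM at ZT8 and 353, 344, 314 and 329.8 CPM at ZT20. No ZT8 library reached the lowest ZT20 library, and the log2 difference was -0.57 (SE 0.12, adjusted p = 0.0019). Hspa4l and Hspa4, exchange factors for HSP70, differed by -0.59 (SE 0.11, adjusted p = 0.00037) and -0.30 (SE 0.058, adjusted p = 0.00052), and Cacybp, a partner of calcyclin, by -0.51 (SE 0.10, adjusted p = 0.00093). Opposite in direction, the cold-inducible RNA-binding protein gene Cirbp was 85.6 to 111 CPM at ZT8 and 66.1 to 85.7 CPM at ZT20, with 0.42 (SE 0.15, adjusted p = 0.039), but its groups overlapped and it was not called without both replicates 3 (adjusted p = 0.1). Rbm3, the other member, was not called, at 0.23.

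The immediate early genes that were called were higher at ZT20, with wide spread. Of 21 genes, 7 were called higher at ZT20 and 0 at ZT8 (median -0.75). Without both replicates 3, 4 were called higher at ZT20, and only 2 genes were called in both comparisons. Nr4a1, an orphan nuclear receptor induced within minutes of a stimulus, measured 5.77, 20.3, 13.3 and 24.5 CPM at ZT8 and 17.4, 47.1, 73.4 and 158 CPM at ZT20. ZT20 replicate 4 was more than 2 times any other library and ZT20 replicate 1 was below 2 of the ZT8 libraries, so that the groups overlapped despite a log2 difference of -2.22 (SE 0.66, adjusted p = 0.017). Without both replicates 3 its call was lost, at -2.14 (SE 0.78, adjusted p = 0.066), as was that of its paralog Nr4a2, at -1.36 (SE 0.55, adjusted p = 0.099). Btg2, an antiproliferative factor, and Klf4, a Krüppel-like factor, were called in both, at -1.24 (SE 0.33, adjusted p = 0.0091) and -0.72 (SE 0.15, adjusted p = 0.0015) with all libraries.

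Glucocorticoid-responsive genes went both ways, with 3 of 14 called higher at ZT8 and 4 at ZT20 (median 0.071). Without both replicates 3, 2 were called in each direction and the median was -0.028. The metallothioneins, small zinc- and copper-binding proteins, were higher at ZT8. Mt2 measured 58.8, 73.8, 119 and 69.1 CPM at ZT8 and 34.8, 32.6, 20.2 and 28.3 CPM at ZT20, and Mt1 measured 199, 271, 317 and 245 CPM at ZT8 and 161, 163, 96.1 and 124 CPM at ZT20. ZT8 replicate 3 was the highest in both, no library of ZT20 reached the lowest of ZT8, and the log2 differences were 1.47 (SE 0.24, adjusted p = 0.0001) and 0.93 (SE 0.21, adjusted p = 0.0021). Cdkn1a (p21), a cell cycle inhibitor, measured 5.30, 6.17, 5.83 and 5.57 CPM at ZT8 and 12.9, 12.9, 15.9 and 20.1 CPM at ZT20, higher at ZT20, at -1.43 (SE 0.17, adjusted p = 9.8e-07). Sgk1, a kinase induced by aldosterone and glucocorticoid that raises sodium transport, measured 106, 111, 76.2 and 133 CPM at ZT8 and 181, 209.8, 229.6 and 328 CPM at ZT20, with -1.15 (SE 0.21, adjusted p = 0.00036).

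More proximal tubule transport genes were called higher at ZT8 than at ZT20. Of 40 genes, 14 were called higher at ZT8 and 4 at ZT20 (median 0.18), and 16 and 2 without both replicates 3. Slc6a19 (chr13:73679745-73700780), the apical carrier of neutral amino acids, measured 508, 494, 511 and 596 CPM at ZT8 and 212, 166, 374 and 167 CPM at ZT20. ZT20 replicate 3 was the highest of its group and still below every ZT8 library. The log2 difference was 1.20 (SE 0.20, adjusted p = 0.00015) with all libraries and 1.55 (SE 0.19, adjusted p = 3.2e-06) without both replicates 3. Slc7a7, a basolateral carrier of cationic amino acids, again had ZT20 replicate 3 as the highest of its group, at 294, 267, 313 and 372 CPM at ZT8 and 117, 128, 229 and 128 CPM at ZT20, with 1.05 (SE 0.19, adjusted p = 0.00029). Slc26a6, an anion exchanger for oxalate, was 9.94 to 12.3 CPM at ZT8 and 7.02 to 9.16 CPM at ZT20, with 0.54 (SE 0.10, adjusted p = 0.00049). Slc15a2, the high-affinity peptide carrier of the straight proximal tubule, went the other way at 122 to 141 CPM at ZT8 and 165 to 206 CPM at ZT20, with -0.56 (SE 0.10, adjusted p = 0.00027). The phosphate carriers Slc34a1 and Slc34a3 were higher at ZT8 by 0.47 (SE 0.096, adjusted p = 0.001) and 0.60 (SE 0.13, adjusted p = 0.0022). The 6 proximal tubule markers, of which Slc34a1 is one, summed to 13255 to 16579 CPM at ZT8 and 11213 to 12312 CPM at ZT20, and the part of tissue sampling in these differences was not tested.

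Genes of the distal nephron were divided. Of 29 genes of sodium and potassium transport, 7 were called higher at ZT8 and 6 at ZT20 (median 0.15), and 4 and 4 without both replicates 3. Prss8, prostasin, the protease that activates the epithelial sodium channel, measured 504, 546, 519 and 604 CPM at ZT8 and 392, 411, 340.2 and 382 CPM at ZT20, higher at ZT8 by 0.51 (SE 0.084, adjusted p = 0.00011). Scnn1b and Slc12a3, the beta subunit of that channel and the thiazide-sensitive carrier, were named after their values were seen and were higher at ZT8 by 0.61 (SE 0.13, adjusted p = 0.0017) and 0.51 (SE 0.17, adjusted p = 0.033), the latter not called without both replicates 3 (adjusted p = 0.066). The summed markers of the distal convoluted tubule, 4 genes with Slc12a3 among them, moved the same way, at 2033 to 2715 CPM at ZT8 and 1513 to 1892 CPM at ZT20, with no overlap between the times. Umod (chr7:119462708-119479262), uromodulin of the thick ascending limb, measured 2542, 2682, 2564 and 2333 CPM at ZT8 and 3345, 4169.5, 5433 and 4487 CPM at ZT20, higher at ZT20, at -0.78 (SE 0.14, adjusted p = 0.0002). It is one of the 4 thick ascending limb markers, 3 of which were called higher at ZT20, and their sum was 3214 to 3748 CPM at ZT8 and 4802 to 7898 CPM at ZT20 with the highest value in ZT20 replicate 3. The part of medullary tissue in the dissected kidney was not tested.

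Water channels also differed in direction. Of 11 genes of water and urea transport, 2 were called higher at ZT8 and 3 at ZT20, with all libraries and without both replicates 3. Aqp3, the basolateral water channel of principal cells, measured 162, 169, 126 and 154 CPM at ZT8 and 102, 96.0, 92.2 and 117 CPM at ZT20, with 0.59 (SE 0.093, adjusted p = 7.1e-05). Aqp6, an intracellular channel of intercalated cells, measured 123, 153, 134 and 137 CPM at ZT8 and 84.2, 90.3, 73.2 and 85.1 CPM at ZT20, with 0.72 (SE 0.12, adjusted p = 0.00011). In both genes each ZT8 library was above each ZT20 library. Aqp4, the other basolateral channel of principal cells, was higher at ZT20 at 98.5, 82.4, 132 and 63.3 CPM at ZT8 and 162, 200.3, 227 and 206 CPM at ZT20, with -1.08 (SE 0.25, adjusted p = 0.0032). The sum of 5 principal cell markers, Aqp3 included, was 1064 to 1321 CPM at ZT8 and 728 to 1144 CPM at ZT20.

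More acid-base genes were called higher at ZT8. Of 21, 8 were called higher at ZT8 and 1 at ZT20 (median 0.29), and 5 and 1 without both replicates 3. Foxi1, the transcription factor of intercalated cells, measured 42.0, 55.6, 46.4 and 46.3 CPM at ZT8 and 30.5, 27.9, 20.5 and 30.5 CPM at ZT20, with 0.80 (SE 0.14, adjusted p = 0.00017). Car14, a membrane carbonic anhydrase of the proximal tubule, was 91.5 to 129.8 CPM at ZT8 and 63.7 to 70.7 CPM at ZT20, with 0.73 (SE 0.094, adjusted p = 4.4e-06). Insrr, an alkali-sensing receptor kinase, was 62.1 to 82.9 CPM at ZT8 and 33.3 to 51.6 CPM at ZT20, with 0.66 (SE 0.12, adjusted p = 0.00038), and Atp6v1c2, a proton pump subunit, was 44.4 to 53.1 CPM at ZT8 and 23.9 to 36.6 CPM at ZT20, with 0.58 (SE 0.13, adjusted p = 0.0019). ZT20 replicate 3 was the lowest library for Foxi1, Insrr and Atp6v1c2, and intercalated cell markers summed to 395 to 484 CPM at ZT8 and 278 to 395 CPM at ZT20 with the same library lowest. Of 21 genes of calcium, magnesium and phosphate handling, 4 were called higher at ZT8 and 3 at ZT20, and 3 and 1 without both replicates 3. Beside the phosphate carriers, Atp2b1, a plasma membrane calcium pump, had -0.39 (SE 0.096, adjusted p = 0.0052) and Cldn19, a tight junction protein for magnesium uptake, -0.46 (SE 0.11, adjusted p = 0.0054), both higher at ZT20. The groups of Cldn19 overlapped, and Atp2b1 was not called without both replicates 3.

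Fasting and lipid genes did not move as one. Of 32 fasting and PPAR alpha target genes, 11 were called higher at ZT8 and 9 at ZT20 (median 0.13), and 7 and 6 without both replicates 3 (median 0.073). Ppara, the fatty acid receptor itself, measured 183, 195, 185 and 236 CPM at ZT8 and 85.2, 77.9, 123 and 93.3 CPM at ZT20, with 1.08 (SE 0.16, adjusted p = 2.2e-05). The acyl-CoA thioesterases Acot3 and Acot1, neighbours of one gene cluster with similar sequence, went opposite ways. Acot3 was 115 to 156 CPM at ZT8 and 66.7 to 98.4 CPM at ZT20, with 0.73 (SE 0.13, adjusted p = 0.00026), and Acot1 was 77.1 to 92.9 CPM at ZT8 and 119 to 130.2 CPM at ZT20, with -0.60 (SE 0.12, adjusted p = 0.00073). Reads shared by such near copies may be split by the counting. Slc22a5, the carnitine carrier, was 243 to 310.1 CPM at ZT8 and 164 to 202 CPM at ZT20, with 0.56 (SE 0.12, adjusted p = 0.0014).

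In fatty acid synthesis, 4 of 20 genes were called in each direction (median -0.23), and 3 and 4 without both replicates 3. Srebf1, the lipogenic transcription factor, measured 80.0, 68.5, 108 and 75.8 CPM at ZT8 and 158, 165, 169 and 164 CPM at ZT20, higher at ZT20, at -0.98 (SE 0.22, adjusted p = 0.0026). Scd2, a stearoyl-CoA desaturase, measured 125, 125, 121 and 113 CPM at ZT8 and 244, 255, 242 and 221 CPM at ZT20, likewise higher at ZT20, at -0.99 (SE 0.14, adjusted p = 1.3e-05). Dgat2, which completes triglyceride synthesis, was higher at ZT8 at 293 to 356 CPM at ZT8 and 197 to 245 CPM at ZT20, with 0.49 (SE 0.085, adjusted p = 0.00021). Of 25 sterol synthesis genes, 3 (12%) were called higher at ZT8, near the 11.4% of all genes tested, among them Mvk and Acat2, at 0.36 and 0.24, and 1 (4%), Cyp51, at ZT20, with -0.40 (SE 0.12, adjusted p = 0.016). Without both replicates 3, neither Mvk nor Acat2 was called, and the counts were 1 and 2, with 1 gene called in both comparisons.

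In glucose metabolism, Hk2, the insulin-responsive hexokinase, measured 2.20, 1.92, 0.856 and 0.701 CPM at ZT8 and 7.34, 6.05, 4.83 and 6.42 CPM at ZT20, a 4.33-fold difference in favour of ZT20 with a log2 value of -2.12 (SE 0.40, adjusted p = 0.00046). Brown fat markers summed to 32.3, 35.9, 9.08 and 10.2 CPM at ZT8 and 112, 92.8, 24.8 and 86.9 CPM at ZT20. Both Hk2 and that sum were low in ZT8 replicates 3 and 4, and lowest within ZT20 in replicate 3. The part of perirenal fat in the Hk2 difference was not tested. Slc2a1, the glucose carrier GLUT1, and Pfkp, a phosphofructokinase, were also higher at ZT20, at -0.58 (SE 0.097, adjusted p = 0.00014) and -0.60 (SE 0.069, adjusted p = 7.6e-07). Pfkfb3, which makes the activator of phosphofructokinase, was higher at ZT8 by 0.44 (SE 0.13, adjusted p = 0.02). In all, 3 of 17 glycolysis genes were called in each direction (median -0.0011), and 1 and 3 without both replicates 3 (median 0.032). Of 8 gluconeogenesis genes, 2 were called, one in each direction, and they form one enzyme system that releases glucose from its phosphate. G6pc, the catalytic subunit, measured 615, 576, 504 and 778 CPM at ZT8 and 988, 1058, 1027 and 957 CPM at ZT20, higher at ZT20, at -0.70 (SE 0.16, adjusted p = 0.0032), while Slc37a4, the carrier that feeds it, measured 304, 353, 286 and 351 CPM at ZT8 and 245, 221, 213 and 221 CPM at ZT20, higher at ZT8 by 0.52 (SE 0.11, adjusted p = 0.0016).

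More genes of drug metabolism were called higher at ZT8, with 7 of 40 genes called higher at ZT8 and 1 at ZT20 (median 0.11), and 8 and 1 without both replicates 3 (median 0.044). These are 17.5% and 2.5% of the list, against 11.4% and 11.3% of all genes tested. Cyp2a5, a coumarin hydroxylase, measured 474, 636, 576 and 329.5 CPM at ZT8 and 198, 188, 172 and 159.9 CPM at ZT20, with 1.49 (SE 0.20, adjusted p = 9.3e-06). Its near-identical neighbour Cyp2a4 had 0.051 (SE 0.21, adjusted p = 0.89), and reads may be split between them. Gstt2, a glutathione transferase, was 360.2 to 454 CPM at ZT8 and 172 to 266 CPM at ZT20, with 0.82 (SE 0.12, adjusted p = 1.7e-05), and Cyp2s1 was 27.7 to 36.1 CPM at ZT8 and 20.1 to 23.2 CPM at ZT20, with 0.61 (SE 0.083, adjusted p = 1e-05). Of 18 NRF2 and NADPH genes, 2 were called higher at ZT8 and 4 at ZT20, and 1 and 2 without both replicates 3. The 2 glucose 6-phosphate dehydrogenase genes were called in opposite directions. H6pd, in the endoplasmic reticulum, was 155 to 176 CPM at ZT8 and 112 to 129 CPM at ZT20, with 0.49 (SE 0.065, adjusted p = 8.1e-06), and the cytosolic G6pdx was 28.2 to 29.8 CPM at ZT8 and 35.7 to 37.7 CPM at ZT20, with -0.32 (SE 0.074, adjusted p = 0.0033). Ugdh and Gclm, of glucuronate and glutathione synthesis, were higher at ZT20, at -0.38 (SE 0.10, adjusted p = 0.0077) and -0.35 (SE 0.092, adjusted p = 0.008).

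Autophagy genes were called higher at ZT8 in 6 of 20 and at ZT20 in 3 (median 0.20), and in 6 and 1 without both replicates 3. Gabarapl1, of the ATG8 family on autophagosomes, measured 1280.2, 1441, 1317 and 1508 CPM at ZT8 and 1041, 1033, 936 and 1032 CPM at ZT20, with 0.46 (SE 0.10, adjusted p = 0.0028). Map1lc3b (LC3B) differed by 0.31 (SE 0.050, adjusted p = 9.3e-05), Bnip3, a mitophagy receptor, by 0.36 (SE 0.070, adjusted p = 0.00058), and Ulk1, the initiating kinase, by 0.30 (SE 0.062, adjusted p = 0.0013), all higher at ZT8 and without overlap. Ribosome biogenesis had 3 of 29 genes called in each direction (median -0.039), and 2 and 4 without both replicates 3. Ddx21, Heatr1 and Rrp12, which act in ribosomal RNA transcription and processing, were higher at ZT20, at -0.42 (SE 0.078, adjusted p = 0.00046), -0.39 (SE 0.081, adjusted p = 0.0014) and -0.48 (SE 0.11, adjusted p = 0.0036), and Rrp9 was higher at ZT8 by 0.48 (SE 0.10, adjusted p = 0.0018). Of 16 ATF4 targets, 2 were called in each direction, and of these 4 only Psat1, of serine synthesis, was called without both replicates 3. Its log2 difference was -0.57 (SE 0.14, adjusted p = 0.0039), and those of Ddit4, Shmt2 and Trib3 were -0.81, 0.24 and 0.91.

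More vasoactive genes were called higher at ZT20, with 8 of 25 called higher at ZT20 and 1 at ZT8 (median -0.41), and 4 and 1 without both replicates 3 (median -0.18). Ptgs2, cyclooxygenase 2, measured 1.44, 1.96, 1.51 and 1.21 CPM at ZT8 and 3.29, 4.47, 8.45 and 7.91 CPM at ZT20, with -1.98 (SE 0.45, adjusted p = 0.0029). Ptger3, a prostaglandin E2 receptor of the thick ascending limb, measured 39.7, 36.0, 33.1 and 31.3 CPM at ZT8 and 59.1, 63.1, 81.8 and 64.2 CPM at ZT20, with -0.94 (SE 0.15, adjusted p = 7.9e-05). Mme, neprilysin, which degrades natriuretic peptides, was 183 to 197 CPM at ZT8 and 226 to 439 CPM at ZT20, with -0.65 (SE 0.15, adjusted p = 0.0029). For these 3 genes, ZT20 replicate 3 was the highest library, and the endothelial markers, at 205 to 258 CPM at ZT8 and 252 to 425 CPM at ZT20, were also highest there. So were the thick ascending limb markers, at 3214 to 3748 CPM at ZT8 and 4802 to 7898 CPM at ZT20. The part of tissue sampling in these differences was not tested.

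Collagen and basement membrane genes were called higher at ZT20 in 8 of 28 and at ZT8 in 0 (median -0.19), and in 5 and 0 without both replicates 3. Col4a3, a chain of the glomerular basement membrane, measured 213, 165, 218 and 181 CPM at ZT8 and 352, 368, 501 and 389 CPM at ZT20, with -1.05 (SE 0.15, adjusted p = 2.4e-05). Plod2, a collagen lysyl hydroxylase, measured 18.9, 15.4, 18.7 and 11.5 CPM at ZT8 and 23.1, 29.9, 50.3 and 31.1 CPM at ZT20, with -1.06 (SE 0.19, adjusted p = 0.00029). Col4a5 and P4ha1, another chain of that membrane and a prolyl hydroxylase, differed by -0.30 (SE 0.068, adjusted p = 0.0024) and -0.48 (SE 0.12, adjusted p = 0.006). In these 4 genes each ZT20 library was above each ZT8 library, and ZT20 replicate 3 was the highest for Col4a3, Plod2 and Col4a5. Podocyte markers summed to 353 to 489 CPM at ZT8 and 376 to 598 CPM at ZT20, and fibroblast and mural cell markers to 116 to 198 CPM at ZT8 and 193 to 229 CPM at ZT20.

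Of 29 growth factor and insulin signalling genes, 3 were called higher at ZT8 and 4 at ZT20 (median -0.0040), and 5 and 1 without both replicates 3 (median -0.053). Igfbp4, an IGF-binding protein, measured 1548 to 1917 CPM at ZT8 and 849.8 to 1013 CPM at ZT20, with 0.78 (SE 0.11, adjusted p = 1.2e-05). Igfbp1, another, measured 45.9 to 57.1 CPM at ZT8 and 21.7 to 37.0 CPM at ZT20, with 0.93 (SE 0.20, adjusted p = 0.002). Bmp7, a growth factor of nephron epithelium, had 0.33 (SE 0.085, adjusted p = 0.0067), and Ghr, the growth hormone receptor, -0.34 (SE 0.11, adjusted p = 0.021), with overlap in both. Of 25 proliferation genes, 1, Birc5 (survivin), was called with 0.88 (SE 0.29, adjusted p = 0.032), and 0 without both replicates 3. Of 20 interferon-stimulated genes, 4 were called higher at ZT8 and 1 at ZT20 (median 0.050), and 1 and 1 without both replicates 3. Rsad2 (viperin) was higher at ZT20 at 11.7 to 17.4 CPM at ZT8 and 22.1 to 32.5 CPM at ZT20, with -0.83 (SE 0.18, adjusted p = 0.0018), Oasl2 was higher at ZT8 by 0.52 (SE 0.15, adjusted p = 0.012), and Bst2 and Irf7 were at 0.45 and 0.44.

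**Figure D4:**
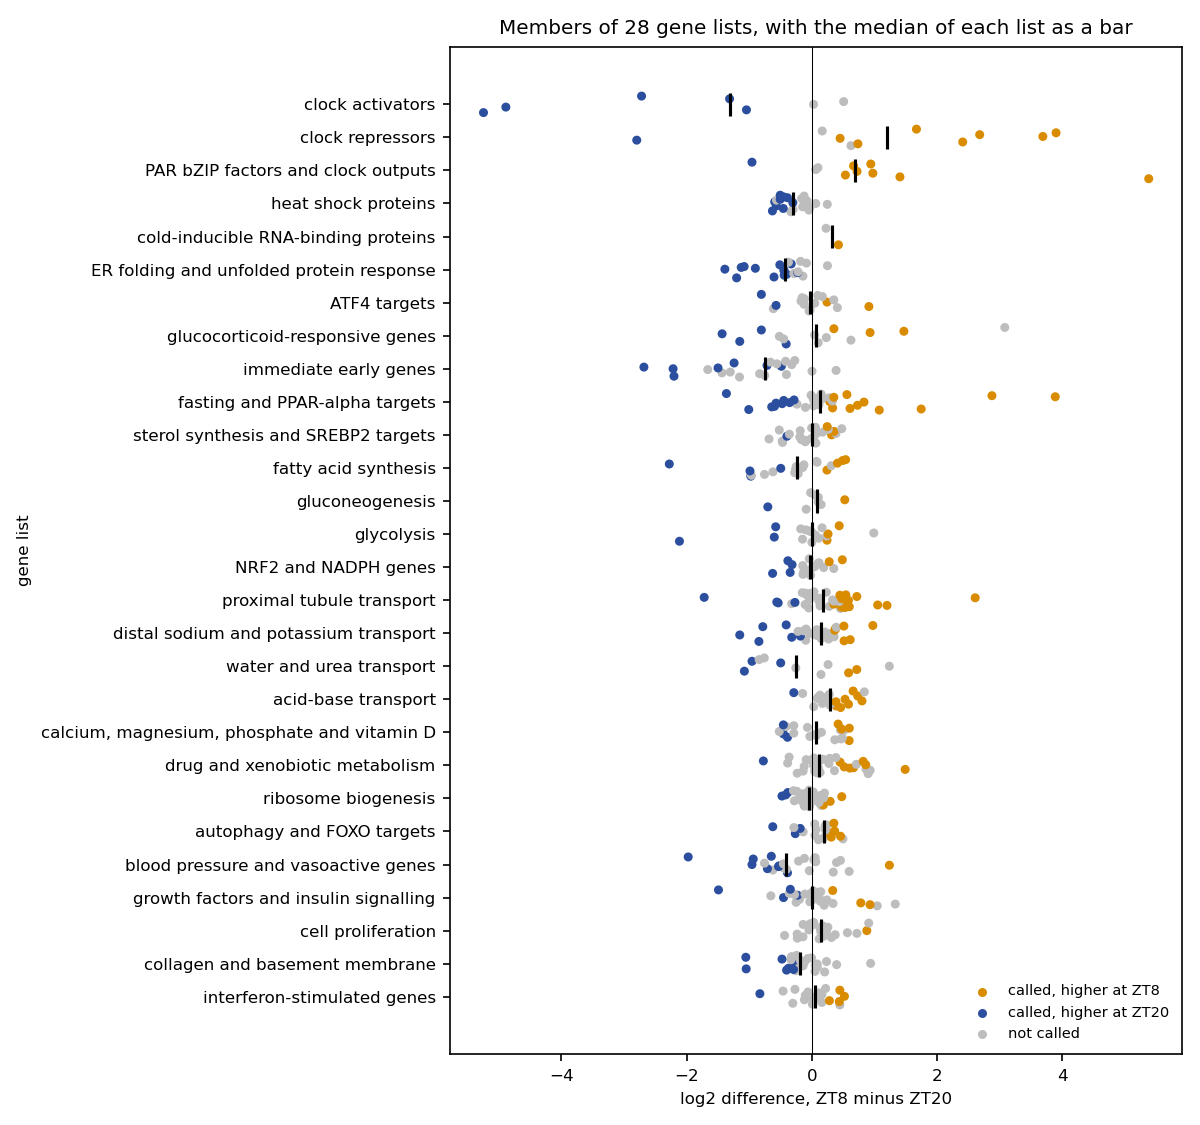
Log2 difference between ZT8 and ZT20 (horizontal axis) for each tested member of the 28 gene lists, in orange where called higher at ZT8, blue where called higher at ZT20 and grey where not called, with the list median as a bar. Chaperone and immediate early gene points lie mostly left of 0, proximal tubule and acid-base points mostly right of it, and the clock lists reach furthest from 0.

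The same contrast was made in nephritic mice to see how far the time difference differed between the groups. Among 16872 genes tested in nephritic kidney, 293 (1.74%) differed between ZT8 and ZT20, and 3017 had an unadjusted p under 0.05. Of the young calls, 3720 had a nephritic value, 3273 had the same sign there and 168 were called there too. The share of the same sign over all genes tested was not computed, so 3273 has no reference. The nephritic count came from 7 mice and fell to between 4 and 228 when one of 6 of these mice was left out, and rose to 392 without ZT20 replicate 2. The direct test of a different time difference in young and nephritic kidney called 6 of 17521 genes (0.0342%), with 1128 at an unadjusted p under 0.05.

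Arntl and Npas2 were 2 of those 6. Arntl measured 2.21, 3.95, 19.3 and 3.25 CPM at ZT8 and 26.0, 35.6 and 27.2 CPM at ZT20 in nephritic kidney. All 4 nephritic ZT8 libraries lay above the young ZT8 libraries, and nephritic ZT8 replicate 3 stood far above the other 3. The nephritic log2 difference was -2.04 (SE 0.46, adjusted p = 0.03). Npas2 measured 1.48, 2.63, 18.2 and 1.97 CPM at ZT8 and 14.8, 31.6 and 18.6 CPM at ZT20 there, with the same library apart and a log2 difference of -1.83 (SE 0.56, adjusted p = 0.086). The young minus nephritic difference was -3.20 (SE 0.52, adjusted p = 0.0024) for Arntl and -3.06 (SE 0.59, adjusted p = 0.033) for Npas2. Over 19 alternatives both kept their sign, and Arntl stayed called in 18 and Npas2 in 11. Without nephritic ZT8 replicate 3 the value was -2.03 (adjusted p = 0.014) for Arntl and -1.50 (adjusted p = 0.35) for Npas2. From the ZT8 and ZT20 libraries alone neither was called, at adjusted p = 0.21 for Arntl and 0.31 for Npas2. The other 4 genes, named after their values were seen, were Cdan1, Kri1, Mlxipl and Tnfrsf17. Mlxipl, the carbohydrate response factor ChREBP, was higher at ZT8 in young kidney by 0.41 (SE 0.097, adjusted p = 0.004) and had -0.44 (SE 0.13, adjusted p = 0.074) in nephritic kidney. Tnfrsf17, a plasma cell receptor, rested on ZT8 replicate 1, at 24.7 CPM against at most 0.195 CPM in the other 7 young libraries.

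Other clock genes had nephritic differences that were not called as different from young. Cry1 had -2.88 (SE 0.32, adjusted p = 0.00011) in nephritic kidney, Nr1d1 4.05 (SE 0.62, adjusted p = 0.0036) and Dbp 3.74 (SE 0.59, adjusted p = 0.0052). Nfil3, Nr1d2 and Clock were called in both groups too, at -2.07, 1.83 and -0.55 in nephritic kidney. Per2 and Cry2 had nephritic values of the opposite sign, -0.72 (SE 0.35, adjusted p = 0.28) and -0.31 (SE 0.28, adjusted p = 0.63), with tests of the difference at adjusted p = 0.34 and 0.6. In several of these genes nephritic ZT8 replicate 3 stood apart, with Dbp at 134, 115, 10.8 and 149 CPM over the nephritic ZT8 libraries. Per2 measured 42.7, 37.2, 10.6 and 38.9 CPM at ZT8 and 58.3, 47.2 and 54.5 CPM at ZT20 there. Cry2 measured 43.1, 45.1, 20.8 and 42.0 CPM at ZT8 and 38.9, 56.6 and 44.7 CPM at ZT20. For Cry1 that library lay among the others. The part of this library in these differences was not tested. No gene of the chaperone, acid-base or collagen lists was called in nephritic kidney, where only 1.74% of all genes tested were called. With so low a share, the absence of calls says little about these lists. The medians there were -0.072 for ER folding, -0.081 for heat shock proteins, 0.15 for acid-base transport and -0.22 for collagen. No member of these lists passed the test of a different time difference, which 0.0342% of all genes tested passed. A difference between young and nephritic mice was therefore not shown for them.

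**Figure D5:**
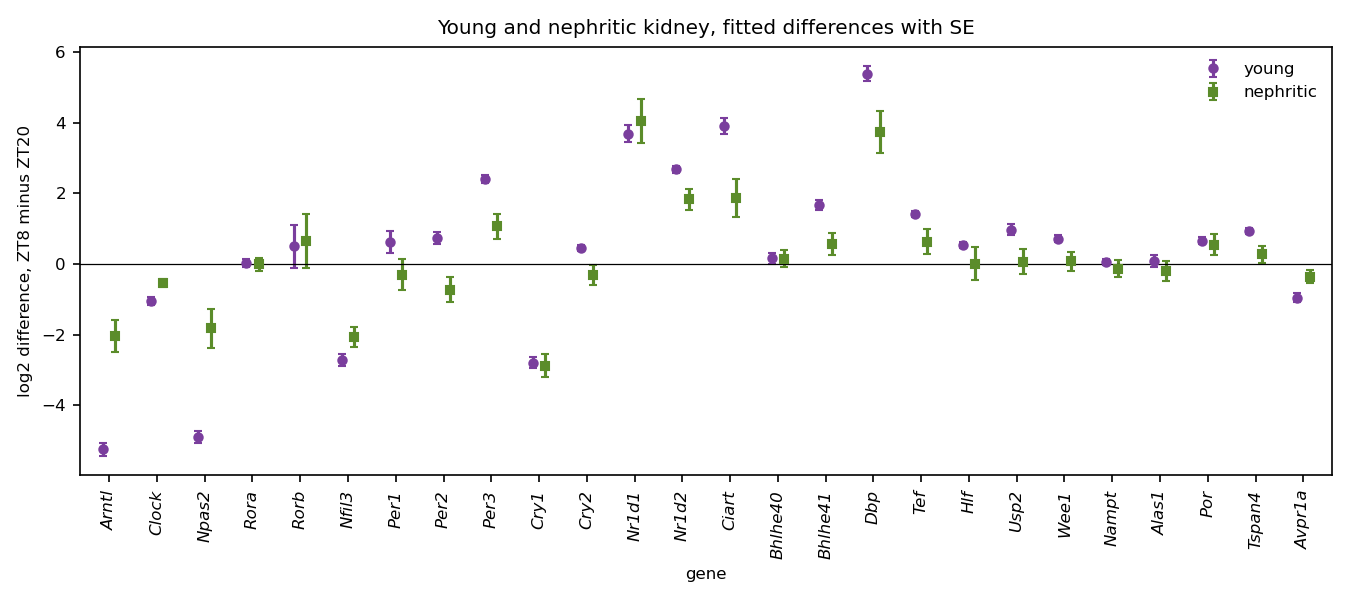
Fitted log2 difference between ZT8 and ZT20 with its SE for 26 clock genes and clock outputs in young (circles) and nephritic (squares) kidney. Cry1 and Nr1d1 lie close together in both groups, while Arntl is at -5.25 in young and -2.04 in nephritic kidney.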

How the data were processed

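The authors isolated total RNA from perfused kidneys with TRIzol and sequenced oligo-dT-selected mRNA on an Illumina HiSeq with 150 bp reads. They aligned reads to mm10 and deposited uniquely mapped reads with at most 2 mismatches as raw counts per gene symbol, with 24538 symbols per library. The submitters' processing notes name HISAT and mm10, and strand counting was not given in the sources used here. From the counts, log2 differences were computed with edgeR 4.0.16 (quasi-likelihood test, TMM scaling, two-sided, Benjamini-Hochberg adjustment, adjusted p at most 0.05) in R 4.3.3. The fit held the 30 young libraries, with terms for the 6 times and for the RNA-seq set assigned from the names, and genes with at least 100 counts over them. The nephritic fit held 27 libraries and the test of the difference between groups 57. The other 12 libraries, repeats and mice in remission, were left out. P-values measure the spread between mice, and the depth was 25550735 to 33493416 counts per library.

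Named genes were the 12 with the largest difference in each direction (called, at least 1 CPM, groups not overlapping, no gene models), all members of the 3 clock lists, and up to 4 called members with the smallest p of each of the other lists; 2 of these genes are counted in their lists and not reported here by name. The members, lists and tests were chosen with earlier results of these data known. Alternatives were DESeq2 1.42.0, limma 3.58.1, other filters, scalings and samples. The scripts were tested on simulated data. Symbols are those of the deposited tables, and positions and promoter sequences are RefSeq's for GRCm38.p6.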

Additional observations from a re-analysis of the deposited data

Results flagged for a closer look

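In groups of 4 libraries, 35 of 292 (12.0%) had one library far from the other 3 by Dixon's criterion, where chance gives about 1 in 20 for unselected, independent groups. These groups were neither, since they held marker sums and named genes, some of them chosen by the size of their difference. The 7 genes given below as high in ZT8 replicate 3 were named by size. The excess over that rate is therefore no test. ZT20 replicate 3 held 13 of them, ZT8 replicate 3 held 9 and ZT8 replicate 4 held 9. In ZT8 replicate 3, the library with low Xist (59.0 CPM) and with liver transcripts (summed CPM 13355), Cyp2c69 was at 49.7 CPM, Creb3l3 at 35.3, Abcg8 at 15.5, Abcg5 at 12.3, Nat8f2 at 83.2, Slco1a1 at 32.1 and Upp2 at 71.2 CPM, all far above the other ZT8 libraries, and G6pdx, at 28.2 CPM, was below them.

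In ZT20 replicate 3, the library with summed adrenal cortex and medulla markers of 845 and 133 CPM, Ciart was at 1.55 CPM, Clock at 99.3, Bhlhe41 at 5.61, H6pd at 129, Slc7a7 at 229, Car14 at 70.7 and Rsad2 at 32.5 CPM, all above the other ZT20 libraries. Gabarapl1, at 936 CPM, and Igfbp4, at 849.8 CPM, were below them. Its summed neutrophil markers were 4.86 CPM and its skeletal muscle marker 0.661 CPM, again above the others.

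In ZT8 replicate 4, Slc22a5 was at 310.1 CPM, Slc6a19 at 596 and Slc34a1 at 6829.7 CPM, above the other ZT8 libraries, and Rrp12 was below them at 9.47 CPM. The summed markers there were 16579 CPM for proximal tubule, 53.3 for B and plasma cells and 16.2 for neutrophils, all high, and 3214 for thick ascending limb and 17.3 for adipocytes, both low. Single flags fell on Npas2 in ZT20 replicate 2 (24.0 CPM, low), Acot3 in ZT8 replicate 1 (115 CPM, low), Heatr1 in ZT20 replicate 1 (23.3 CPM, low) and Slc2a1 in ZT20 replicate 4 (129 CPM, high).

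The time difference itself differed between young and nephritic kidney in the test of that difference for Arntl (log2 -3.20) and Npas2 (log2 -3.06), both larger in young kidney. One of the 4 nephritic ZT8 libraries, replicate 3, stood far above the other 3 for both genes, and without it the value was -2.03 for Arntl and -1.50 (adjusted p = 0.35) for Npas2.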

How the results depend on the processing

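The count of genes that differed between ZT8 and ZT20 in young kidney (3748, of which 1879 were higher at ZT8 and 1869 at ZT20) was 1784 (866 and 918) at an adjusted p of at most 0.01, 1150 (555 and 595) with a 1.5-fold minimum, 1734 (829 and 905) from the 8 libraries alone, 2398 (1227 and 1171) without the set term and 2319 (1129 and 1190) without both replicates 3, an alternative chosen after seeing the data. All but the fit without the set term use a stricter rule or fewer libraries by construction, and the cause of that change was not tested. It stayed within 1.5 times under RLE scaling (3779), DESeq2 (4111), limma (3545), no filter (3481), a minimum of 1 CPM (3843) and Set 2 alone (3529). Leaving out one library gave 2653 (without ZT20 replicate 3) to 4114 (without ZT20 replicate 1, 2046 higher at ZT8 and 2068 at ZT20), with at least 1306 higher at ZT8 and 1319 at ZT20. The nephritic count (293) was 899 with DESeq2, 181 without a filter, 724 from ZT8 and ZT20 alone and 4 to 392 leaving out one library, and the cause was not tested. The count of genes with a different time difference (6) was 12 with DESeq2, 2 without a filter, 2 from ZT8 and ZT20 alone and 1 to 6 leaving out one library. Among the 128 named genes, 2 changed sign, neither of them called: Alas1 had -0.092 without ZT8 replicate 3, -0.079 without both replicates 3 and up to 0.198 without ZT8 replicate 1, and Rora had -0.0020 without ZT8 replicate 4, -0.0020 without ZT20 replicate 1, -0.025 without ZT20 replicate 2 and -0.055 without ZT20 replicate 4, against 0.204 without both replicates 3. No paired analysis was possible because the libraries carry ear-mark names and share no replicate numbers between times. The ZT20 libraries were deeper at the median, and 4 mice per time limit the smaller differences.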

Other observations

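Large gene families were grouped by symbol, with all 8 libraries. The solute carrier family includes members of the lists above, such as Slc6a19, Slc7a7 and Slc34a1, so its counts partly repeat theirs. Of 338 solute carrier genes, 73 (21.6%) were called higher at ZT8 and 43 (12.7%) at ZT20, against 11.4% and 11.3% of all genes tested, with a median log2 difference of 0.072 against -0.0047 for all genes tested. Of 76 ribosomal protein genes, 4 (5.26%) were called higher at ZT8 and 0 at ZT20 (median 0.096). Of 103 respiratory chain genes, 5 (4.85%) were called higher at ZT8 and 2 (1.94%) at ZT20 (median 0.092), and of 38 proteasome subunits, 2 (5.26%) and 7 (18.4%) (median 0.015).

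Of the largest differences called with and without both replicates 3, 3 more are given that were chosen after the values were seen. Sox9, a transcription factor known from injured tubules, measured 3.03, 3.22, 3.29 and 2.57 CPM at ZT8 and 0.973, 1.46, 1.58 and 0.803 CPM at ZT20, with a log2 difference of 1.33 (SE 0.22, adjusted p = 0.00013). Angptl4, a member of the fasting list and a secreted inhibitor of lipoprotein lipase, measured 25.0, 41.7, 30.3 and 47.0 CPM at ZT8 and 12.5, 12.1, 8.80 and 9.55 CPM at ZT20, with 1.75 (SE 0.46, adjusted p = 0.0082). Loxl4, of the lysyl oxidase family, measured 2.89, 1.65, 2.17 and 1.75 CPM at ZT8 and 8.57, 8.45, 7.19 and 7.82 CPM at ZT20, with -1.92 (SE 0.24, adjusted p = 3.3e-06). Separation between times in all 8 libraries was a condition of this choice and is no separate result.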
